A study of Mus musculus with 4 samples.

Results

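The genes described here encode the subunits of the proteasome and the transcription factor NFE2L1. They were taken by symbol from a fixed list, and all 40 were found among the 32286 features of the count tables. The list held the 7 genes of the 20S alpha rings (Psma1 to Psma7) and the 7 constitutive genes of the 20S beta rings (Psmb1 to Psmb7). It also held the 3 immunoproteasome beta genes (Psmb8, Psmb9 and Psmb10). Counted with the 19S cap were 6 ATPases (Psmc1 to Psmc6) and 13 non-ATPase genes (Psmd1 to Psmd9 and Psmd11 to Psmd14). Among the latter, Psmd9 encodes an assembly chaperone of the cap's base. The remaining genes were 3 activators (Psme1, Psme2 and Psme4) and Nfe2l1 itself.

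The proteasome destroys ubiquitin-tagged proteins, including those that ER-associated degradation (ERAD) pulls out of the endoplasmic reticulum. Its 20S core is a barrel of alpha and beta rings in which PSMB5, PSMB6 and PSMB7 cut peptides, and its 19S cap binds ubiquitin, removes it and unfolds the substrate with a ring of ATPases. Immune signals replace the cutting subunits with PSMB8, PSMB9 and PSMB10, and the PA28 activator of PSME1 and PSME2 opens the core without ubiquitin. NFE2L1 sits in the endoplasmic reticulum, is itself removed by ERAD through the ubiquitin ligase HRD1 (Syvn1), and, when the proteasome falls short, is cut free to switch on proteasome genes through antioxidant response elements in their promoters.

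The libraries were single-nucleus RNA libraries (10x Genomics 3′ chemistry, which counts 1 unique molecular identifier, UMI, for each captured RNA) made from cortical and hippocampal tissue of mice 5 weeks of age. Of the 4 libraries, 1 mouse each, 2 carried the label Sel1L flox/flox and 2 the label Sel1L Syn-Cre. Both groups held the floxed allele of Sel1l, the adaptor of HRD1, on the C57BL/6J background, and Syn-Cre mice added Cre recombinase under the Synapsin I promoter, which is active in postmitotic neurons. The question asked of these 40 genes was whether their RNA differed between the labels in any cell class, and how it differed between classes of the same mice.

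After filtering, 6800 to 11105 nuclei and 66315520 to 101154625 UMIs remained per library, and any 2 libraries shared 10 to 34 cell barcodes. Sel1l, the targeted gene, stood at 96.9 and 90.2 CPM (UMIs scaled to a common total per library) in the flox/flox libraries and at 155 and 128 in the Syn-Cre libraries. It was not lower under Syn-Cre, and 3′ counts cannot tell a transcript that lacks the floxed exon from a whole one. The library labelled flox/flox replicate 1 held 415 UMIs of Cre against 0 in flox/flox replicate 2 and 235 and 218 under Syn-Cre, so it went against its label. Most calls and leading values are also given without it. Sums, counts at an unadjusted p and counts of libraries that do not overlap rest on all libraries. Each label held 1 library with Xist (replicate 2) and 1 with Ddx3y (replicate 1), so sex was balanced between labels. Nuclei were grouped into neuron-like nuclei (21708), 11 neuron subtypes and 5 other classes, named from marker genes. The leading genes of the endothelial-like class included Bnc2, a marker of vascular fibroblasts or pericytes, and no class of those cells was named. When libraries were clustered without integration, 122 nuclei with Vtn and Pdgfrb among their leading genes formed an unnamed cluster. The endothelial-like class may hold such nuclei, and their part in its levels was not tested.

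NFE2L1 binds a core that is written TGACNNNGC (antioxidant response element, ARE). Both strands of the 250 bases before each RefSeq transcription start were searched in GRCm38.p6, and 5 of the 34 members with a listed promoter (14.7%) held the core, against 11.5% of 27025 genes. They were Psmb5 and Psmb6, 2 of the genes of the cutting subunits, the ATPase gene Psmc6, and Psmd9 and Psmd12. The stretches of Psmb5 (chr14:54618014-54618062, minus strand) and Psmb6 (chr11:70525328-70525356, plus strand) are shown because these genes were called higher than in neurons in all 5 other cell classes. The remaining members with the core went otherwise: Psmd9 was called lower in 3 of those classes, and Psmc6 and Psmd12 were called in none. A link between the core and the level was not tested. The capitals mark the ARE core, which ended 39 bases before the start in Psmb5 and 1 base before it in Psmb6.
Psmb5: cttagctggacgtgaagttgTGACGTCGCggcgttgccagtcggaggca
Psmb6: cagaggcggactaaagagagTGACGGAGC

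None of the 34 promoters held the ER stress elements ERSE (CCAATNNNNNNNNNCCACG) or ERSE-II (ATTGGNCCACG), which 0.13% and 0.037% of all genes held. Both elements were searched on both strands of the same windows. Herpud1 (chr8:94386357-94386407, plus strand), an ER protein that helps carry ERAD substrates to the proteasome, held an ERSE-II, and its window also held an ARE core that ended 171 bases before the start. Syvn1 (chr19:6046512-6046570, plus strand), the HRD1 gene, held an ERSE. Both genes are shown because they were called between the labels, as described with the other genes of the pathway. The capitals mark the elements. A match of letters is a description and not a bound site.
Herpud1: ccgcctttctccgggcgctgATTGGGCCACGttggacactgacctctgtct
Syvn1: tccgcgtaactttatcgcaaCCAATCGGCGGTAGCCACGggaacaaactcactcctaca

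In all neuron-like nuclei, RNA of the proteasome genes differed by a few percent in sum between the labels, and no gene of the set passed the test. The 14 genes of the 20S rings summed to 540 and 524 CPM in flox/flox and to 549 and 559 in Syn-Cre (values between labels are after TMM scaling of the totals). The 19 genes of the 19S cap summed to 937 and 928 in flox/flox and to 929 and 965 in Syn-Cre. For the core both Syn-Cre libraries lay above both flox/flox libraries by a ratio of 1.04 of the means, and for the cap the libraries overlapped with a ratio of 1.02. None of the 38 members that passed the filter on low counts was called between the labels at an adjusted p under 0.05 in edgeR's quasi-likelihood test, beside 0.154% of all genes tested, and DESeq2 called 0. At an unadjusted p under 0.05 stood 2 of the 38. Both Syn-Cre libraries lay above both flox/flox libraries for 13 of the 38 (34.2%, beside 22.9% of all genes) and below for 2 (5.26%, beside 22% of all genes).

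The 2 members at an unadjusted p under 0.05 in edgeR were Psmb4, a non-cutting beta subunit, and Psmd8, a cap subunit. Psmb4 held 11.2 and 10.6 CPM in flox/flox and 12.6 and 13.6 in Syn-Cre, a log2 difference of 0.26 (SE 0.109, adjusted p = 0.379 in edgeR). Psmd8 held 13.3 and 12.6 against 15.6 and 15.4, a log2 difference of 0.26 (SE 0.1, adjusted p = 0.352 in edgeR). In both genes the labels did not overlap, but neither passed the test over all genes. The 95% intervals bounded the difference in the mean over all neuron-like nuclei. For all 38 members the interval lay within a 1.5-fold change in either direction. The highest upper bound was 0.58 on the log2 scale. The paper reports that SEL1L was lost in only part of the cortical neurons and was largely kept in CA1. It also reports a loss close to complete in CA3 and DG. These intervals over all neuron-like nuclei therefore did not bound a change in the nuclei that lost it, taken alone. In DG- and CA3-like neurons by themselves the interval lay within a 2-fold change for 36 and 34 of 38 members. The median log2 difference of the members was 0.03 and that of all genes tested was 0. The plot of intervals by member shows how close to 0 each estimate lay.

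**Figure D1:**
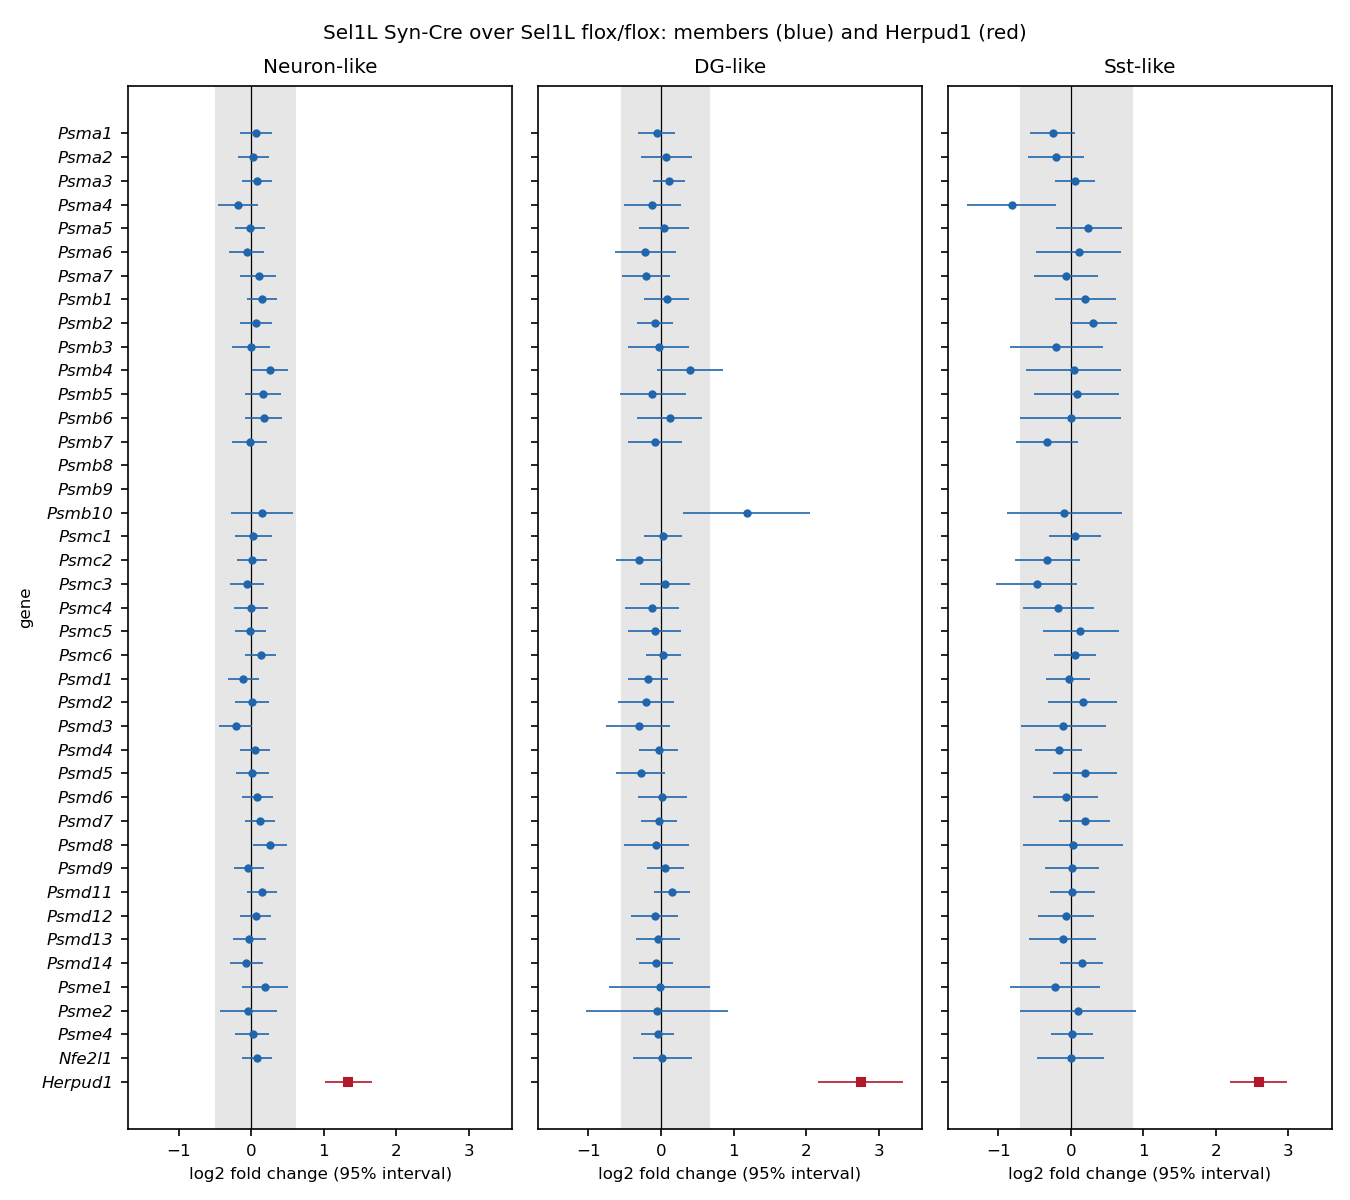
Log2 difference (Syn-Cre minus flox/flox) with its 95% interval for each member tested, in all neuron-like nuclei and in the DG- and Sst-like subtypes (blue, genes on the vertical axis), with Herpud1 in red. The grey band spans the 5th to the 95th percentile of all genes tested. In neuron-like nuclei every interval of a member lay within a 1.5-fold change, while Herpud1 stood at 1.33.

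No member was called in a subtype either, while the sums separated the labels in some of them. Of the 11 neuron subtypes, all had 0 members called in edgeR and 0 in DESeq2. The share of all genes called was 0.335% in L2/3 IT-like, 1.23% in L4/5 IT-like, 0.45% in L5/6 IT-like and 0.352% in L6 CT-like neurons of the cortex. It was 4% in DG-like granule neurons, 0% in CA1-like and 0.0658% in CA3-like neurons of the hippocampus. Among interneurons it was 4.39% in Pvalb-like, 8.47% in Sst-like, 0.00891% in Vip-like and 0.482% in Lamp5-like neurons. Of the member tests in these subtypes, 13 of 414 (3.14%) stood at an unadjusted p under 0.05, 9 with a higher level in Syn-Cre and 4 with a lower one, beside 12.4% of the tests of all genes. Both Syn-Cre libraries lay above both flox/flox libraries in 104 member tests (25.1%, beside 21.7% of all genes) and below in 61 (14.7%, beside 21% of all genes).

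The median log2 difference of the members ran from -0.07 in CA3-like to 0.11 in L2/3 IT-like neurons, while the median of all genes was 0 to 0.01. In the 4 excitatory subtypes of the cortex both Syn-Cre libraries had a higher 20S sum than both flox/flox libraries. It was 510 and 474 against 533 and 519 CPM in L2/3 IT-like, 484 and 487 against 511 and 528 in L4/5 IT-like, 531 and 534 against 584 and 565 in L5/6 IT-like and 538 and 531 against 560 and 583 in L6 CT-like neurons. The ratio of the means was 1.07, 1.07, 1.08 and 1.07. CA1-like neurons had the same order, at 540 and 522 against 571 and 563 (ratio 1.07), and CA3-like neurons the opposite one, at 566 and 570 against 529 and 546 (ratio 0.946). The 19S sum also lay above in Syn-Cre in L2/3 IT-like (888 and 873 against 905 and 937), L4/5 IT-like (863 and 864 against 872 and 897) and CA1-like neurons (915 and 927 against 952 and 971), and below in CA3-like neurons (1010 and 1000 against 960 and 988). These sums are descriptions, and no test over them was run. They also depend on the scaling. On UMI totals without TMM, the 20S order held in the 4 excitatory subtypes of the cortex and in CA1-like neurons. CA3-like neurons then overlapped in the 20S sum, at 539 and 558 against 532 and 562. Their 19S sum overlapped as well, at 963 and 982 against 966 and 1017. The 19S sum also overlapped in L2/3 IT- and L4/5 IT-like neurons, and lay above in Syn-Cre in CA1-, Pvalb-, Sst- and Vip-like neurons. Vip-like and Lamp5-like neurons overlapped between the labels in the 20S sum after TMM. On UMI totals Lamp5-like neurons lay above in Syn-Cre, at 566 and 639 against 640 and 696.

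The 20S sum in Sst-like neurons, the subtype with the most called genes, was 640, 658, 644 and 641 CPM in flox/flox replicates 1 and 2 and Syn-Cre replicates 1 and 2. In DG-like neurons it was 577, 550, 560 and 574, and in Pvalb-like neurons 607, 611, 629 and 597. After TMM the labels separated in none of these 3 subtypes, and the ratio of the means was 0.99, 1.01 and 1.01. On UMI totals without TMM both Syn-Cre libraries lay above both flox/flox libraries in all 3. The sums were then 603 and 644 against 651 and 657 in Sst-like and 558 and 541 against 564 and 586 in DG-like neurons. In Pvalb-like neurons they were 577 and 602 against 638 and 608. The 95% interval lay within a 2-fold change for 36 of 38 members in Sst-like, 36 of 38 in DG-like and 35 of 38 in Pvalb-like neurons. A change of that size in the mean over the nuclei of a subtype was thus bounded for most members but not for all.

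**Figure D2:**
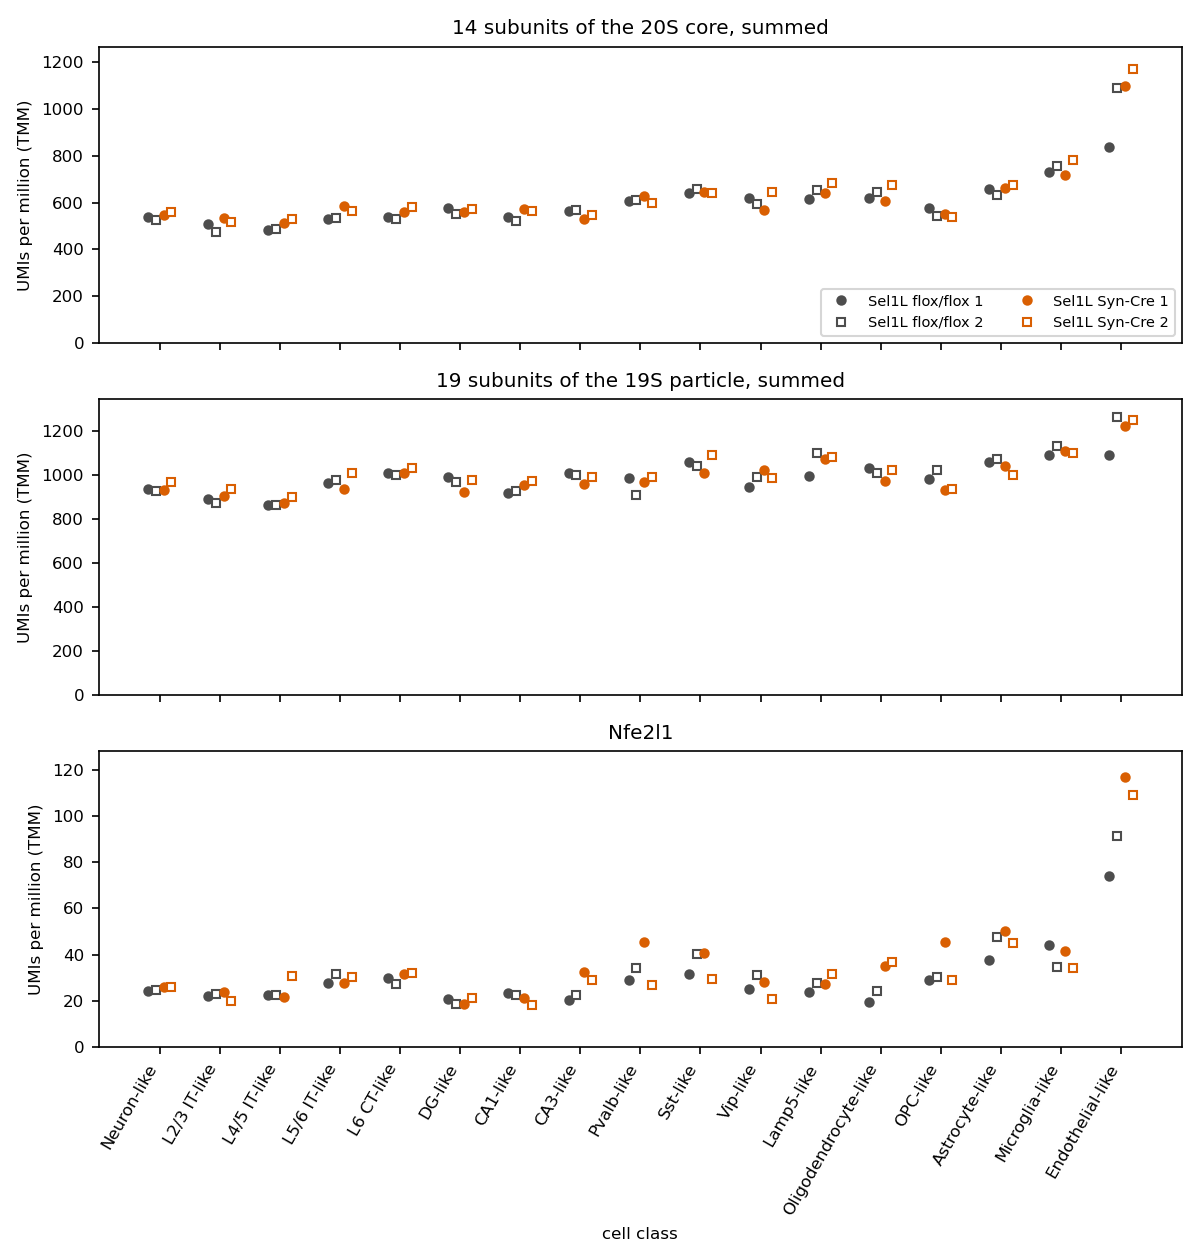
Summed CPM (TMM, axis from 0) of the 14 genes of the 20S rings (top) and the 19 genes of the 19S cap (middle), and the level of Nfe2l1 (bottom), in each cell class, 1 point a library, with flox/flox in grey and Syn-Cre in orange. In Sst-like neurons the 20S points sit between 640 and 658 under both labels.

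**Figure D3:**
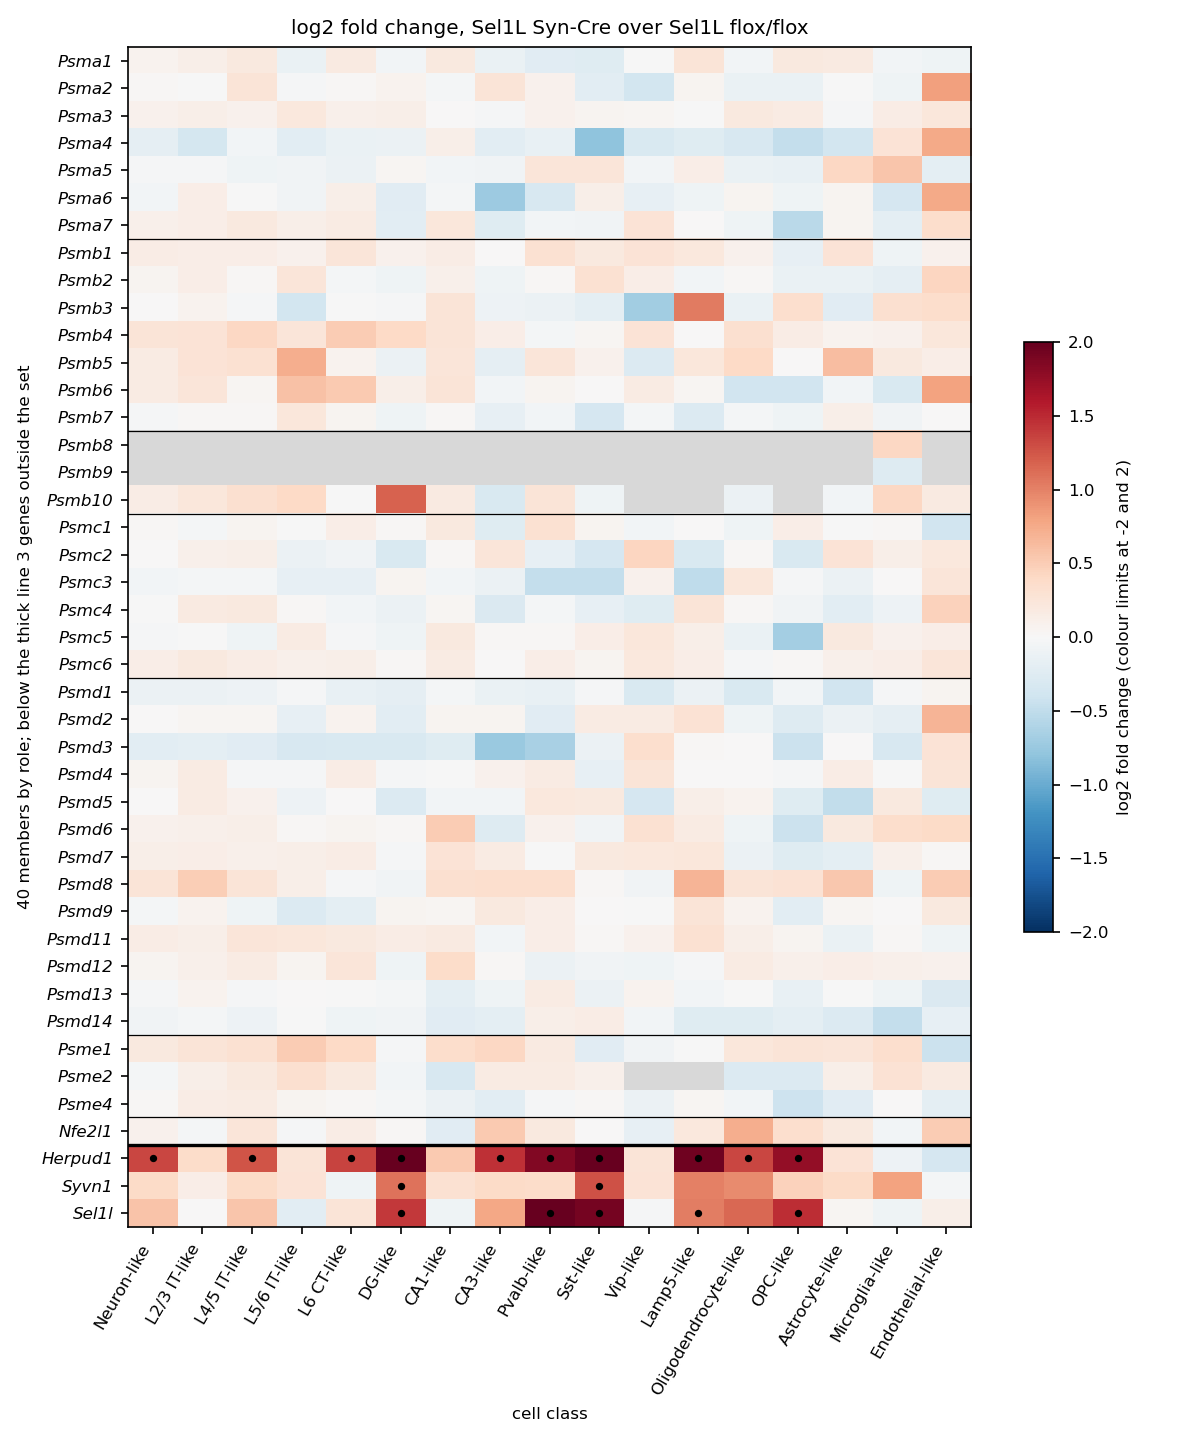
Log2 difference (Syn-Cre minus flox/flox, colour scale) of each member (rows, by role) in each of the 17 cell classes (columns), with genes that failed the filter on low counts in grey and Herpud1, Syvn1 and Sel1l under the thick line. A dot marks a call in edgeR: no member has one in any class, and Herpud1 has one in 10.

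The gene Nfe2l1 lies at chr11:96817414-96829968 on the minus strand (GRCm38) and is overlapped by no gene on either strand. In neuron-like nuclei it held 24.3 and 24.8 CPM in flox/flox and 25.9 and 26.1 in Syn-Cre. Both Syn-Cre libraries lay above, by a log2 difference of 0.08 (SE 0.0898, 95% interval -0.13 to 0.29, adjusted p = 0.758 in edgeR). In Sst-like neurons it held 31.6 and 40.2 in flox/flox and 40.8 and 29.3 in Syn-Cre, with a log2 difference of 0 (95% interval -0.46 to 0.46), and the labels overlapped. In DG-like neurons it held 20.6, 18.4, 18.6 and 21.2 in flox/flox replicates 1 and 2 and Syn-Cre replicates 1 and 2, with a log2 difference of 0.02 (95% interval -0.39 to 0.42).

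CA3-like neurons had the widest gap in Nfe2l1 among the subtypes. There it held 20.2 and 22.6 in flox/flox and 32.5 and 28.9 in Syn-Cre (59, 52, 80 and 73 UMIs), and the labels did not overlap. The log2 difference was 0.52 (SE 0.198), with an unadjusted p of 0.0219 and an adjusted p of 0.541 in edgeR, and without flox/flox replicate 1 the difference was 0.44. In CA1-like neurons the same gene held 23.2 and 22.5 against 21.3 and 18 (log2 difference -0.22, adjusted p = 0.759 in edgeR), the lowest of the subtypes. The remaining subtypes lay between -0.16 in Vip-like and 0.24 in L4/5 IT-like neurons, and none passed the test.

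By role, the genes of the cutting subunits (named here for their function) gave small and mixed values in neuron-like nuclei. Psmb5, the chymotrypsin-like subunit, held 14.9 and 13.4 in flox/flox and 15.4 and 16.3 in Syn-Cre, and Psmb6, the caspase-like subunit, held 9.51 and 10.2 against 10.7 and 11.4. The log2 differences were 0.16 (SE 0.106) and 0.17 (SE 0.113), and in both genes the Syn-Cre libraries lay above. Psmb7, the trypsin-like subunit, held 31.4, 27, 28.5 and 29.2 in the same order of libraries and overlapped between the labels (log2 difference -0.02). In single subtypes (named after their values were seen), Psmb5 reached a log2 difference of 0.72 in L5/6 IT-like neurons (43 and 33 UMIs against 60 and 68, unadjusted p = 0.00831, adjusted p = 0.276 in edgeR). Psmb6 had its highest value there as well, at 0.59 (adjusted p = 0.579 in edgeR). In L6 CT-like neurons Psmb6 and Psmb4 stood at 0.53 and 0.51, with adjusted p of 0.42 and 0.379 in edgeR.

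Among alpha subunits, Psma4 in Sst-like neurons came closest to a call. It held 70 and 37 UMIs in flox/flox and 21 and 26 in Syn-Cre, or 26, 20.1, 11 and 15.9 CPM, and the labels did not overlap. The log2 difference was -0.81 (SE 0.291, 95% interval -1.43 to -0.2, adjusted p = 0.0949 in edgeR, 0.56 in DESeq2). It was called when flox/flox replicate 2 was left out (-0.98) and when Syn-Cre replicate 2 was left out (-1.09). Across the subtypes its log2 difference was above 0 in CA1-like neurons and below 0 in the other 10, down to this value. Psma4 overlaps AY074887 on the opposite strand, and whether counting used strand is not given in the sources used here. Psma6 in CA3-like neurons held 61 and 32 UMIs against 26 and 27 (log2 difference -0.73, adjusted p = 0.563 in edgeR).

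The ATPase genes had the narrowest range of the cap. In neuron-like nuclei the log2 differences of the 6 ran from -0.06 for Psmc3 to 0.13 for Psmc6. Psmc6 had a log2 difference above 0 in all 11 subtypes, from 0.01 in CA3-like to 0.21 in Vip-like neurons, and passed the test in none. Psmd1, the scaffold of the cap's base, had one below 0 in all 11, from -0.3 in Vip-like to -0.03 in L5/6 IT-like neurons, and passed the test in none. These subtypes come from the same 4 mice, so they are not repeats of each other.

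Among the other cap genes, Psmd3, a lid scaffold, had the lowest values in Pvalb- and CA3-like neurons. In Pvalb-like neurons it held 24.6 and 25.1 in flox/flox and 12.6 and 18.8 in Syn-Cre (log2 difference -0.65, SE 0.248, adjusted p = 0.175 in edgeR), without overlap of the labels. In CA3-like neurons it held 21.2 and 22.6 against 11.8 and 14.2 (log2 difference -0.75, SE 0.241, adjusted p = 0.473 in edgeR). In Pvalb-like neurons it was called when Syn-Cre replicate 2 was left out (-0.98). In Vip-like neurons its log2 difference was 0.33. Psmd6 and Psmd12 in CA1-like neurons had log2 differences of 0.5 and 0.36 (adjusted p of 0.496 and 0.538 in edgeR). In L2/3 IT-like neurons Psmd8 held 14 and 9.73 against 16.9 and 16.8, a log2 difference of 0.49 (adjusted p = 0.355 in edgeR). It was called there without flox/flox replicate 1, at 0.79. In the other 16 classes that fit called 0 members. Psmb3, a beta subunit, held 12.3 and 10.5 against 23.5 and 23.9 in Lamp5-like neurons on 11 to 28 UMIs a library (log2 difference 1.04, adjusted p = 0.236 in edgeR).

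Of the immunoproteasome genes, Psmb10 alone passed the filter on low counts in neurons, in all subtypes but the Vip- and Lamp5-like ones. In DG-like neurons it held 14 and 13 UMIs in flox/flox and 22 and 19 in Syn-Cre, or 2.08 and 3.02 against 5.75 and 5.52 CPM. The labels did not overlap, and the log2 difference of 1.18 (SE 0.409, 95% interval 0.3 to 2.05) had an adjusted p of 0.136 in edgeR and 0.681 in DESeq2. The summed level of the 8 microglia or macrophage markers in the same nuclei was 83.9 and 106 CPM in flox/flox and 110 and 84.4 in Syn-Cre, so it overlapped between the labels. That of the 6 endothelial markers, of which 5 had a UMI, was 2.73 and 2.75 against 6.06 and 4.15 and its part in the value was not tested. Psmb8 and Psmb9 held 25 and 23 UMIs among the 263287830 of all neuron-like nuclei.

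Psme4, the PA200 activator, held 220 and 194 CPM in flox/flox and 209 and 209 in Syn-Cre in neuron-like nuclei (log2 difference 0.02). The PA28 genes Psme1 and Psme2 held 6.4 and 7.06 against 7.22 and 8.09, and 4.68 and 4.5 against 4.87 and 4.07. None of the 3 passed the test in a subtype (Psme2 was too low to test in Vip- and Lamp5-like neurons), and the log2 differences of Psme1 across them ran from -0.22 in Sst-like to 0.5 in L5/6 IT-like neurons.

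In the 5 other classes 0 members were called as well, in edgeR and in DESeq2. The share of all genes called was 0.837% in oligodendrocyte-like, 8.4% in OPC-like, 0.824% in astrocyte-like, 0.0841% in microglia-like and 0.0239% in endothelial-like nuclei. At an unadjusted p under 0.05 stood 5 of 191 member tests (2.62%), beside 11.5% of the tests of all genes. Both Syn-Cre libraries lay above both flox/flox libraries in 36 of the 191 (18.8%, beside 20.9% of all genes) and below in 27 (14.1%, beside 20.5% of all genes). Nfe2l1 in oligodendrocyte-like nuclei held 19.5 and 24.2 in flox/flox and 35.1 and 36.6 in Syn-Cre (130, 83, 38 and 39 UMIs), with no overlap. Its log2 difference was 0.73 (SE 0.226), with an unadjusted p of 0.00957 and an adjusted p of 0.246 in edgeR, and it was 0.56 without flox/flox replicate 1.

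The members below in OPC-like nuclei were 13 of 37, with 2 above, beside 22.9% and 23.3% of all genes. The median log2 difference of the members there was -0.13, and the 19S sum was 982 and 1020 in flox/flox and 932 and 934 in Syn-Cre (ratio 0.933). Psme4 in these nuclei held 242 and 208 against 171 and 165 (log2 difference -0.42, SE 0.159, adjusted p = 0.107 in edgeR), and was called without flox/flox replicate 2 at -0.53. In the same nuclei the summed level of the 6 oligodendrocyte markers was 3114 and 2375 CPM in flox/flox and 104 and 221 in Syn-Cre. All 6 had UMIs, and their part in the OPC-like values was not tested. Psmd14, the deubiquitinase of the cap, held 116 and 103 against 86.6 and 70.9 in microglia-like nuclei (log2 difference -0.47, adjusted p = 0.553 in edgeR). Endothelial-like nuclei, with 151515 UMIs in the smallest library, bounded 14 of 38 members to within a 2-fold change.

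Other genes of the pathway, 52 in all and 49 of them among the features, were read from the same fits. They covered proteasome assembly, proteins bound to the proteasome, subunits of other tissues, processing and partners of NFE2L1, and ubiquitin with its shuttles. In neuron-like nuclei 1 of 47 tested was called higher and 0 lower. In the classes with calls the counts were 1 in L4/5 IT-like, 1 in L6 CT-like, 2 in DG-like, 1 in CA3-like, 2 in Pvalb-like, 5 in Sst-like and 1 in Lamp5-like neurons, and 1 each in oligodendrocyte-like and OPC-like nuclei, all higher in Syn-Cre. No gene of these lists was called lower in any class, and none of the assembly genes or ubiquitin genes themselves was called.

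Herpud1 made up most of these calls. In DG-like neurons it held 80 and 58 UMIs in flox/flox and 437 and 189 in Syn-Cre, or 11.9 and 13.5 against 114 and 54.9 CPM. Both Syn-Cre libraries lay far above, and the gene rose by 2.75 on the log2 scale (SE 0.277, adjusted p = 3.37e-05 in edgeR). In Sst-like neurons it held 26.7 and 32 against 200 and 150 and rose by 2.59 (SE 0.186, adjusted p = 1.44e-07 in edgeR). In neuron-like nuclei together it held 17.8 and 20.3 against 54.3 and 41.5 and rose by 1.33 (SE 0.14, adjusted p = 0.0277 in edgeR). This call for all neuron-like nuclei was lost without flox/flox replicate 1 (1.24) and without flox/flox replicate 2 (1.42). It also rose in Lamp5-like (1.95), Pvalb-like (1.85), CA3-like (1.46), L6 CT-like (1.35) and L4/5 IT-like (1.26) neurons, and in OPC-like (1.75) and oligodendrocyte-like (1.33) nuclei. In these single classes edgeR called Herpud1 without each library in turn. Without flox/flox replicate 1 its log2 difference was 2.65 (DG-like) and 2.46 (Sst-like), and 1.11 to 1.95 in the other 7 classes. Oligodendrocyte-like nuclei numbered 1848 and 1174 in flox/flox and 358 and 365 in Syn-Cre. The level of neuron markers in OPC- and oligodendrocyte-like nuclei was not measured. The part of RNA from neurons in their Herpud1 values was not tested. In the DG-like neurons, where Herpud1 rose 6.75-fold, the 20S sum had a ratio of 1.01 after TMM scaling.

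The other called genes were Syvn1, Txnl1, Nfe2l2 and Bach1. Syvn1, whose protein HRD1 marks NFE2L1 for removal, held 11.7 and 9.07 against 26.4 and 18.3 in DG-like neurons and rose by 1.08 (SE 0.234, adjusted p = 0.0161 in edgeR), and in Sst-like neurons it rose by 1.28 (SE 0.347). In DG-like neurons it was not called without flox/flox replicate 2 (0.93) or Syn-Cre replicate 1 (0.79), and in Sst-like neurons without flox/flox replicate 1 (1.17) or Syn-Cre replicate 1 (0.68). Txnl1, a thioredoxin-like protein on the 19S cap, rose in Pvalb-like (0.68, SE 0.157) and Sst-like neurons (0.59, SE 0.163). The former was lost without flox/flox replicate 1 (0.62) or Syn-Cre replicate 1 (0.65) and the latter without any 1 of the libraries (0.57 to 0.62). In Sst-like neurons Nfe2l2, the relative of NFE2L1 in oxidative stress, rose by 1.87 on 9, 6, 35 and 9 UMIs, and of the fits with 1 library left out only that without Syn-Cre replicate 2 called it (2.45). Without Syn-Cre replicate 1 it stood at 0.72. Bach1, a repressor at the same elements, rose by 0.82 (SE 0.222) and was lost without flox/flox replicate 1 (0.73) or Syn-Cre replicate 2 (0.47). DESeq2 called Herpud1 alone in DG-, Pvalb- and Sst-like neurons. Without flox/flox replicate 1, edgeR called 1 in place of 5 of these genes in Sst-like and 1 in place of 2 in Pvalb-like neurons, in both cases Herpud1.

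Whether a member's difference between the labels itself differed between subtypes was tested against CA1-like neurons, in which Sel1l was not called. In DG-, Sst-, Pvalb- and L4/5 IT-like neurons 0 of 38 members were called, beside 2.54%, 3.14%, 1.77% and 0.4% of all genes. At an unadjusted p under 0.05 stood 2, 4, 3 and 1 members, and DESeq2 called 0. The lowest adjusted p was 0.103, for Psma4 in Sst-like neurons (a difference of -0.92, SE 0.299). Psmd12 was called in DG-like neurons when Syn-Cre replicate 2 was left out, at -0.71. Of the pathway's other genes, Herpud1 passed in DG-like (2.2), Sst-like (2.07) and Pvalb-like neurons (1.34), Ogt, the O-GlcNAc transferase that stabilizes NFE2L1, in Sst-like neurons (0.73), and Txnl1 in Pvalb-like neurons (0.74). The Pvalb-like result for Herpud1 was lost without flox/flox replicate 1 (1.1), without flox/flox replicate 2 (1.52), without Syn-Cre replicate 1 (0.74) and in DESeq2 (1.28), and that for Txnl1 without each library but Syn-Cre replicate 1 (0.83) and in DESeq2. DESeq2 also did not call Ogt in Sst-like neurons.

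More proteasome genes were called between cell classes than between labels, and the same held for all genes. The labels rest on 2 mice each, so the counts of the 2 kinds of test are not on the same footing. Each other class was compared with neuron-like nuclei of the same library, with the library as a block. In oligodendrocyte-like nuclei 12 of 38 members were called higher and 5 lower, beside 29.4% and 39.3% of all genes, and in OPC-like nuclei 3 and 9 of 38, beside 24.6% and 29.3%. Astrocyte-like nuclei had 9 higher and 7 lower of 38, beside 27.3% and 32.3%. Microglia-like nuclei had 7 and 15 of 38, beside 29.7% and 39.7%, and endothelial-like nuclei 14 and 7 of 38, beside 21.8% and 29%. Psmb8 and Psmb9 are left out of these counts, because they passed the filter on low counts only in classes where they were high, so that a call was set by the filter, a choice made after the values were seen. The share of lower members was about that of all genes in microglia-like nuclei and smaller in the other classes. The share of higher members was larger than that of all genes in endothelial-like nuclei and smaller in OPC-, astrocyte- and microglia-like nuclei. In oligodendrocyte-like nuclei it was close to that of all genes (31.6% beside 29.4%). Without flox/flox replicate 1 the counts of higher members were 8, 2, 5, 7 and 15 and those of lower members 3, 8, 8, 11 and 6, in the same order of classes. The shares of all genes were not counted in that fit.

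**Figure D4:**
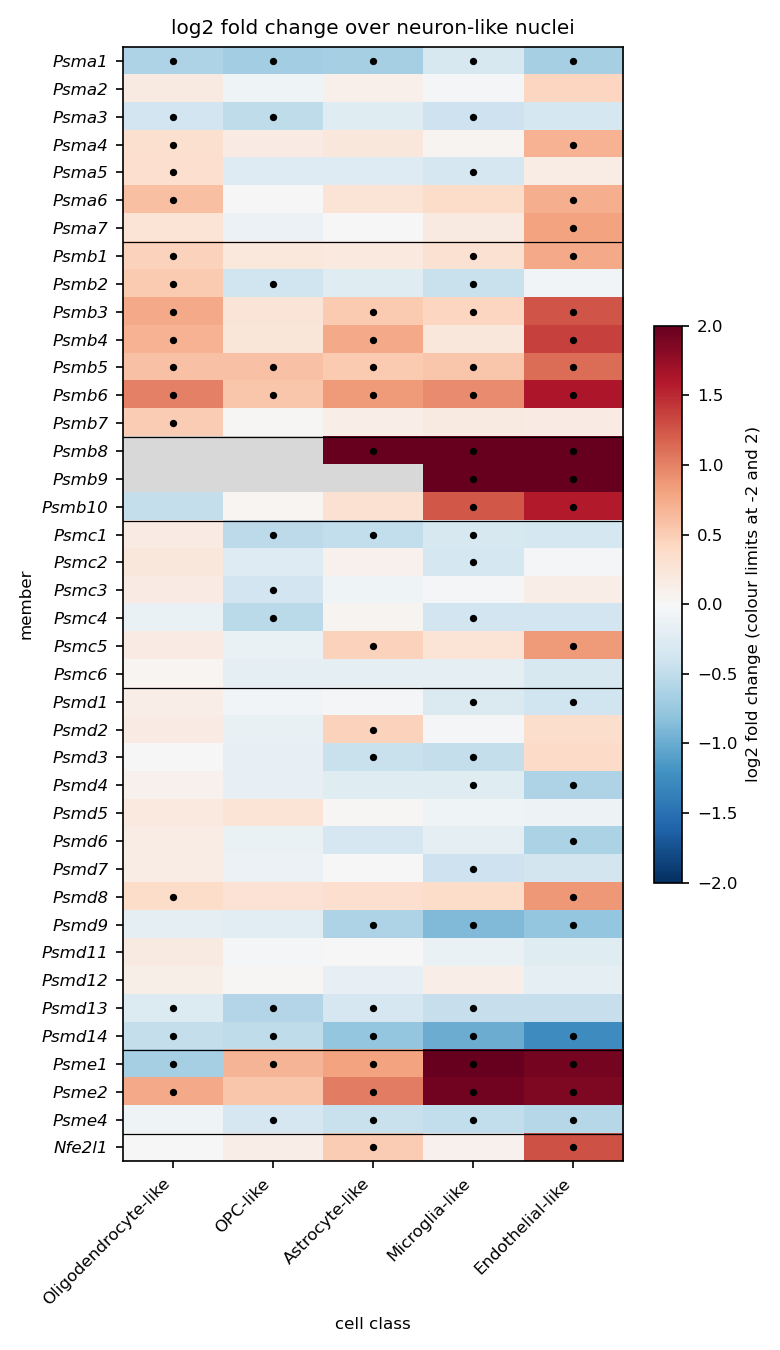
Log2 difference of each member (rows, by role, colour scale limited at -2 and 2) in the 5 other cell classes (columns) relative to neuron-like nuclei of the same libraries. A dot marks a call in edgeR (set by the filter on low counts for Psmb8 and Psmb9) and grey a gene that failed that filter. The 20S beta genes Psmb5 and Psmb6 lay above 0 in all 5 classes and Psmd14 and Psma1 below 0 in all 5.

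Calls were also counted by part of the particle, to be read beside the shares of all genes called that are given above for each class. Of the 14 genes of the 20S rings, 10 were higher and 2 lower in oligodendrocyte-like nuclei, with a median log2 difference of 0.48, and 8 were higher and 1 lower in endothelial-like nuclei, with a median of 0.71. In microglia-like nuclei 4 were higher and 4 lower, with a median of 0.18. In astrocyte-like nuclei 4 were higher and 1 lower (median 0.17), and in OPC-like nuclei 2 and 3 (median 0.02). Of the 19 genes of the cap, 1 was higher and 2 lower in oligodendrocyte-like nuclei (median 0.15), 2 higher and 5 lower in endothelial-like nuclei (median -0.32) and 0 higher and 10 lower in microglia-like nuclei (median -0.25). In astrocyte-like nuclei 2 cap genes were higher and 5 lower (median -0.08), and in OPC-like nuclei 0 and 5 (median -0.16). The medians over all genes were -0.17, -0.27 and -0.25 in oligodendrocyte-, endothelial- and microglia-like nuclei. They were -0.11 and -0.08 in astrocyte- and OPC-like nuclei. The UMIs of the core per UMI of the cap were 0.578 ± 0.0109 (SD, n = 4 libraries) in neuron-like and 0.572 ± 0.0269 in OPC-like nuclei. They were 0.632 ± 0.027 in oligodendrocyte-like, 0.633 ± 0.0343 in astrocyte-like, 0.673 ± 0.0252 in microglia-like and 0.87 ± 0.0724 in endothelial-like nuclei. The lowest endothelial-like library stood at 0.771 and the highest neuron-like library at 0.591. These are ratios of RNA counts in nuclei, and the subunits themselves were not measured. Gene length was not taken into account, and whether intronic reads were counted is not given in the sources used here. Without flox/flox replicate 1 oligodendrocyte-like nuclei lost the calls of Psma4, Psma5, Psmd8 and Psmd13. Microglia-like nuclei lost those of Psma5, Psmc2, Psmd3 and Psmd4, and OPC-like nuclei those of Psmb6 and Psmc3. Endothelial-like nuclei lost Psmd1 and Psmd6 and gained Psma2 (higher) and Psmd7 (lower). Astrocyte-like nuclei lost Psmb3, Psmc5, Psmd2 and Psmd3 and gained Psma3 and Psmb2 (both lower).

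Psmb5 and Psmb6 were called higher in all 5 classes. The 5 comparisons share the same neuron-like nuclei, so calls of 1 gene in several classes are not repeats of each other. How many of all genes were called alike in several classes was not counted. In oligodendrocyte-like nuclei Psmb6 held 22.2 and 26.7 CPM in flox/flox and 13.4 and 19.4 in Syn-Cre, against 9.81, 10.5, 11.1 and 11.7 in the neuron-like nuclei of the same libraries. All 4 libraries were higher, and the log2 difference was 1.01 (SE 0.162, adjusted p = 1.4e-05 in edgeR). Its log2 differences ran from 0.55 in OPC-like to 1.61 in endothelial-like nuclei, and those of Psmb5 from 0.53 in astrocyte-like to 1.12 in endothelial-like nuclei. The Psmb6 call in OPC-like nuclei was lost without flox/flox replicate 1 (0.39) or flox/flox replicate 2 (0.5), and the Psmb5 call in astrocyte-like nuclei without Syn-Cre replicate 1 (0.42) or Syn-Cre replicate 2 (0.4). Psmb7 was called in 1 class, oligodendrocyte-like nuclei (0.51). Psmb3 was called higher in 4 classes and Psmb1 and Psmb4 in 3. The Psmb3 call in astrocyte-like nuclei was lost without flox/flox replicate 1 (0.44). Among core genes called lower, Psma1 was so in all 5 classes, at -0.32 to -0.7, Psma3 in 3, Psmb2 in 2 and Psma5 in 1, while Psmb2 and Psma5 were each higher in 1. In microglia-like nuclei the Psma1 call was lost without flox/flox replicate 2 (-0.28) or Syn-Cre replicate 1 (-0.27). Both Psma5 calls were lost without flox/flox replicate 1, at 0.24 in oligodendrocyte-like and -0.26 in microglia-like nuclei.

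In the cap, Psmd14 was lower in all 5 classes, again against the same neuron-like nuclei. In microglia-like nuclei it held 102, 84.5, 69.1 and 55.2 CPM against 167, 150, 148 and 154 in neuron-like nuclei, lower in all 4 libraries, with a log2 difference of -0.99 (adjusted p = 6.03e-07 in edgeR). The values ran from -0.48 in oligodendrocyte-like to -1.26 in endothelial-like nuclei, and each of the 5 calls was kept without each library in turn. Psmd13, another lid subunit, was lower in 4 classes, Psmd9, an assembly chaperone of the base, in 3, and Psme4 in 4 (-0.33 to -0.57). Psmc5 and Psmd8 were the cap genes called higher in 2 classes. Without flox/flox replicate 1 the Psmd13 (-0.31) and Psmd8 calls (0.4) in oligodendrocyte-like and the Psmc5 call (0.37) in astrocyte-like nuclei were lost. Psmd14, Psmd13, Psmd9 and Psme4 each overlap a gene on the opposite strand, as do 18 of the 40 members. On the same strand, Psmd14 overlaps Gm25966 and Psmd13 overlaps Gm15542, and 8 of the 40 members have such an overlap.

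Psmb8 and Psmb9 had their highest levels in microglia-like and endothelial-like nuclei, and are described without a test. Psmb9 held 45, 45, 24 and 21 UMIs in microglia-like nuclei, or 25.1, 32.8, 21.5 and 23.2 CPM, and 0.118, 0.0996, 0.124 and 0.0769 CPM in neuron-like nuclei. Every microglia-like library lay above every neuron-like library, on a neuron level of 3 to 11 UMIs a library. In endothelial-like nuclei it held 7, 4, 14 and 6 UMIs. Psmb8 held 22, 22, 17 and 18 UMIs in microglia-like nuclei and 5, 1, 12 and 7 in endothelial-like nuclei. Per 1000 UMIs of the microglia markers, neuron-like nuclei held 1.3 of Psmb9, microglia-like nuclei 4.02 and endothelial-like nuclei 140. The endothelial-like value rests on 31 UMIs of Psmb9 and 222 of the markers. The part of RNA from microglia in these levels was not tested.

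Psmb10 had a neuron level well above those of Psmb8 and Psmb9, and its differences between classes were smaller. It held 12.3, 16, 15.3 and 19.9 CPM in microglia-like nuclei against 5.43, 7.15, 6.37 and 7.53 in neuron-like nuclei (log2 difference 1.24, SE 0.202, adjusted p = 3.18e-05 in edgeR). In endothelial-like nuclei the log2 difference was 1.58 (SE 0.331). Without flox/flox replicate 1 the values were 1.27 and 1.73. The counts of Psmb8 and Psmb10 in microglia-like nuclei were equal in all 4 libraries, but they came from different nuclei: 75 held a UMI of Psmb8, 77 of Psmb10 and 1 of both. In astrocyte-like nuclei Psmb8 held 2, 3, 1 and 1 UMIs. In Sst-like neurons Psmb8 and Psmb9 held 0 UMIs, which allows a level of up to 0.365 CPM over the 4 libraries (3 counts, counting error only).

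**Figure D5:**
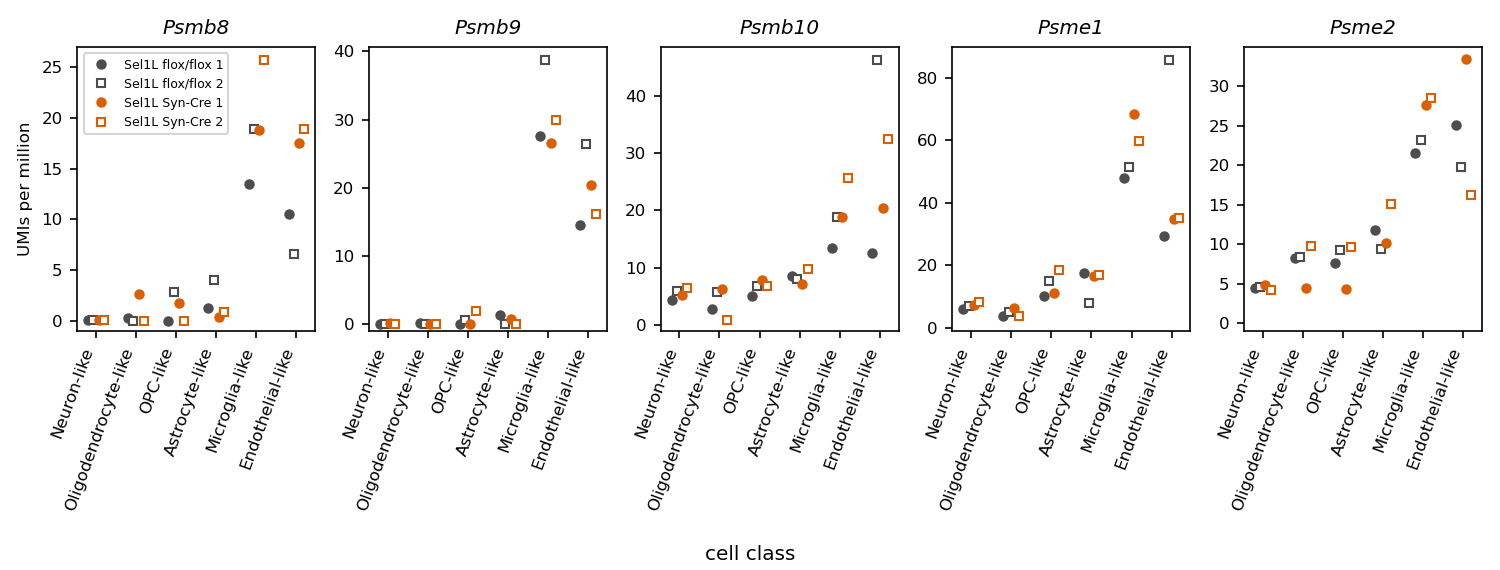
CPM on the class's UMI total (linear axes) of Psmb8, Psmb9, Psmb10, Psme1 and Psme2 in neuron-like nuclei and the 5 other classes, 1 point a library. For Psmb8 and Psmb9 every microglia- and endothelial-like library stands above every library of the other classes. The endothelial-like Psmb8 point of flox/flox replicate 2 is 1 UMI, in a library where 3 counts equal 19.8 CPM.

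The PA28 genes were also highest in microglia- and endothelial-like nuclei. Psme1 held 43.5, 43.7, 55.6 and 46.4 CPM in microglia-like nuclei against 7.69, 8.47, 8.66 and 9.71 in neuron-like nuclei, a log2 difference of 2.46 (SE 0.135, adjusted p = 5.27e-12 in edgeR). It was also higher in endothelial-like (1.91), astrocyte-like (0.8) and OPC-like (0.68) nuclei and lower in oligodendrocyte-like nuclei (-0.66, SE 0.241). Without flox/flox replicate 1 the microglia-like value was 2.44, and the calls in astrocyte-like (0.61) and oligodendrocyte-like nuclei (-0.62) were lost. Leaving out another library ended the astrocyte-like call without Syn-Cre replicate 1 (0.7), and the oligodendrocyte-like (-0.72) and OPC-like calls (0.62) without flox/flox replicate 2. Psme2 was higher by 1.93 in microglia-like and 1.86 in endothelial-like nuclei, and in astrocyte- and oligodendrocyte-like nuclei by 1.03 and 0.75, of which the last was lost without flox/flox replicate 1 (0.66). Psme2 has a near-identical copy, Psme2b, which held 57 UMIs in microglia-like nuclei beside 107 of Psme2, and reads that fit both genes cannot be placed, so its level there is uncertain. The UMIs of Psmb8, Psmb9 and Psmb10 per UMI of Psmb5, Psmb6 and Psmb7 were 0.105 ± 0.0154 (SD, n = 4 libraries) in neuron-like, 0.655 ± 0.141 in microglia-like and 0.409 ± 0.0902 in endothelial-like nuclei.

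Nfe2l1 was highest in endothelial-like nuclei, a class that may also hold vascular fibroblasts or pericytes. On the scale of CPM on the class's UMI total it held 69, 85.8, 109 and 99.9 there, and in the class with the next level, astrocyte-like nuclei, 37.3, 45.5, 48.7 and 46.1. The lowest level was in DG-like neurons, at 20, 18.1, 18.7 and 21.6. Endothelial-like nuclei did not overlap with any other class, while the levels of neighbouring classes between 24.4 in L4/5 IT-like and 35.1 in Sst-like neurons did. Against neuron-like nuclei it was higher in endothelial-like (log2 difference 1.28, SE 0.179, adjusted p = 1.4e-08 in edgeR) and astrocyte-like nuclei (0.5, SE 0.119, adjusted p = 0.00288 in edgeR), and the latter was lost with the flox/flox libraries alone (0.4). Without flox/flox replicate 1 the values were 1.38 and 0.52, and both were called. In microglia-, OPC- and oligodendrocyte-like nuclei the log2 differences were 0.09, 0.14 and 0.

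Among the neuron subtypes the members differed modestly, and these values are descriptions on CPM on the class's UMI total. Of the 38 members compared, the ratio of the highest to the lowest subtype had a median of 1.44 and ran from 1.21 for Psmc1 to 4.27 for Psme1. Psme1 stood at 16.9 ± 2.51 (SD, n = 4 libraries) in Vip-like and 3.96 ± 1.09 in L6 CT-like neurons, and Psme2 at 9.59 ± 2.49 in Sst-like and 2.65 ± 0.665 in L6 CT-like neurons. In neither gene did the libraries of these subtypes overlap. The mean of the 4 interneuron subtypes lay above the mean of the 7 excitatory subtypes in all 4 libraries for 17 members and below it in all 4 for 5. The alpha subunit Psma2 was among the former, at 44.4 ± 0.928 against 28.9 ± 1.51, as were Psma1 (96.2 ± 5.11 against 73.7 ± 4.57) and Nfe2l1 (30.4 ± 4.47 against 24.7 ± 1.69). The latter were Psmc3, Psmc4, Psmd13, Psmd14 and Psme4, of which Psmc3 stood at 24.4 ± 3.55 against 31.8 ± 2.18 and Psme4 at 188 ± 8.64 against 220 ± 5.37. The same counts were not made over all genes, so they do not set the proteasome genes apart. The UMIs of the core per UMI of the cap, again without regard to gene length, were 0.637 ± 0.0316 in Pvalb-like and 0.547 ± 0.0171 in L6 CT-like neurons. The libraries of these 2 subtypes did not overlap.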

How the data were processed

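The deposited files held raw UMI counts per gene and nucleus, which the authors made with Cell Ranger 6.1.0 on GRCm38 per the submitters' processing notes. Whether intronic reads or strand were used in counting is not given in the sources used here. Nuclei with more than 600 genes and under 5% mitochondrial UMIs were kept. In addition, scanpy 1.11.5 marked 434 to 1270 doublets per library (0.8% per 1000 nuclei), which were removed. Libraries were integrated and clustered in Seurat 5.3.0 (2000 features, 17 dimensions, resolution 0.2, and 0.4 for neurons), and a cluster was named with at least 3 detected markers. 971 neuroblast-like and 831 unnamed nuclei, and among neurons 2631 unnamed, 446 neuroblast-like, 895 L5 ET-like, 689 L5/6 NP-like and 257 L6b-like nuclei, entered no subtype comparison.

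Counts were summed per library and class and tested in edgeR 4.0.16 (TMM, low-count filter, quasi-likelihood F test, two-sided, Benjamini-Hochberg over all genes, adjusted p under 0.05) under R 4.3.3. Scripts were tested on simulated data. Alternatives were UMI totals without TMM, DESeq2 1.42.0, no filter, at least 10 UMIs in every library, doublets kept, names without integration, thinned sums, the replicate block and leaving out each library. Between classes, the library was a block. With 2 mice a label, p-values between the labels measure the spread between these mice. That spread includes differences that go with sex, since each label held 1 library with Xist and 1 with Ddx3y. With the library as a block, p-values between classes and of the interaction measure how far the difference between classes varied between libraries. Intervals and floors cover counting error or these spreads only.

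The members, the other gene lists and the tests were chosen with earlier results of these data known. By the rule for named genes, values per library are given for Nfe2l1, for members called in 2 or more classes and for called members with the largest change, and genes of the other lists are named where called. Since no member was called between the labels, the members named there were chosen by role or after their values were seen.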

Additional observations from a re-analysis of the deposited data

Results flagged for a closer look

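Among the proteasome genes, the other listed genes of the pathway and Sel1l, the difference between the labels itself differed between neuron subtypes for 4 genes, by edgeR's test of the interaction against CA1-like neurons. Over all genes the test called 351 (DG-like), 440 (Sst-like), 249 (Pvalb-like) and 62 (L4/5 IT-like), or 2.54%, 3.14%, 1.77% and 0.4% of those tested. For Herpud1 the log2 difference was larger than in CA1-like neurons by 2.2 in DG-like neurons, by 2.07 in Sst-like neurons and by 1.34 in Pvalb-like neurons. For Sel1l it was larger by 1.52 in DG-like neurons, by 2 in Sst-like neurons, by 2.07 in Pvalb-like neurons and by 0.66 in L4/5 IT-like neurons. For Ogt it was larger by 0.73 in Sst-like neurons, and for Txnl1 by 0.74 in Pvalb-like neurons. The Pvalb-like values for Herpud1 and Txnl1 did not pass in DESeq2 or in the fit without flox/flox replicate 1, and the L4/5 IT-like value for Sel1l did not pass without Syn-Cre replicate 1 (0.73) or Syn-Cre replicate 2 (0.58). No proteasome gene was among the 4.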

How the results depend on the processing

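Of 204 alternative fits, 199 called 0 members between the labels and 5 called 1. The median of the members stayed within its spread in 203 of 204, the exception being oligodendrocyte-like nuclei thinned to the smallest sum (0.15). With 2 mice a label and 1 left out, a label rests on 1 mouse that is assumed to vary like the others, and the cause of the shifts was not tested.

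Leaving out each library gave 0 to 1 members called in L2/3 IT-, Pvalb- and Sst-like neurons, in OPC-like nuclei and in the DG-like interaction. The other pathway genes called ranged over 0 to 1 (all neuron-like, L2/3 IT- and L5/6 IT-like), 1 to 2 (L4/5 IT-like, oligodendrocyte-like), 1 to 4 (Pvalb-like), 1 to 3 (Sst-like, OPC-like). Nfe2l1 ranged from -0.16 to 0.09 in L2/3 IT-like, -0.05 to 0.45 in L4/5 IT-like, -0.12 to 0.05 in L5/6 IT-like, -0.08 to 0.11 in DG-like, -0.23 to 0.53 in Pvalb-like, -0.42 to 0.02 in Vip-like neurons, -0.03 to 0.61 in OPC-like and -0.22 to 0.14 in microglia-like nuclei. Herpud1 ranged from -0.08 to 0.52 in L5/6 IT-like and astrocyte-like and -0.23 to 0.06 in microglia-like nuclei. Against neurons (counts with Psmb8 and Psmb9), lower members were 2 to 4 in oligodendrocyte-like and 4 to 6 in endothelial-like nuclei, higher members 1 to 4 in OPC-like and 6 to 10 in astrocyte-like nuclei, Psmb10 in OPC-like nuclei -0.05 to 0.07 and Nfe2l1 in microglia-like nuclei -0.06 to 0.16.

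With the flox/flox libraries alone, higher members against neurons were 19 (oligodendrocyte-like), 5 (OPC-like), 4 (astrocyte-like) and 9 (endothelial-like), lower ones 9 (microglia-like) and 3 (endothelial-like), and Psmb10 in OPC-like nuclei was -0.04. The counts of members include Psmb8 and Psmb9 where they passed the filter on low counts. Shares of all genes were not counted in the alternative fits against neurons, so these counts cannot be set against them. With no filter, astrocyte-like nuclei had 11 lower, Psmb10 in OPC-like nuclei was -0.03 and 2 other pathway genes were called in oligodendrocyte-like nuclei. Thinning gave Nfe2l1 0.02 in L2/3 IT-, -0.32 in L4/5 IT- and -0.02 in Lamp5-like neurons, and 0 (L4/5 IT-, L6 CT-, oligodendrocyte-like) or 1 (Pvalb-, Sst-like) other pathway genes. Keeping doublets gave Nfe2l1 0.03 in L2/3 IT-like and -0.02 in astrocyte-like nuclei, and 0 (CA3-, oligodendrocyte-like) or 2 (Sst-like) other pathway genes. Names without integration gave Herpud1 -0.02 in L5/6 IT-like neurons. DESeq2 called 1 other pathway gene each in DG-, Pvalb- and Sst-like neurons.

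The labels share replicate numbers without a stated pairing, but replicate 1 of each label was the library with Ddx3y and replicate 2 the one with Xist, so the replicate block also removes differences that go with sex. With the replicate block, 0 members were called in all 17 classes and the other pathway genes called were 1 in Pvalb-like, 2 in oligodendrocyte-like and 2 in OPC-like nuclei. The correlation of same-numbered libraries ran from -0.0631 to 0.246, and calls over all genes went from 31 to 562 in neuron-like nuclei, 184 to 742 in L4/5 IT-like, 96 to 573 in oligodendrocyte-like and 97 to 3 in astrocyte-like nuclei with the block.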
